A study of Homo sapiens with 18 samples.

Results

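The comparison described here set human umbilical vein endothelial cells (HUVEC) that had received T cell extracellular vesicles (EVs) against control HUVEC that had received none. It used all 18 arrays of the series. The 12 EV arrays were chosen by their labels from 4 groups of 3, and the 6 control arrays from 2 groups of 3. HUVEC are cultured cells of the venous lining, and EVs are the membrane-bound particles that cells release. One source of EVs was Jurkat, a line grown from a human T cell leukaemia, and the other was JinB8, a Jurkat mutant without CD47 on its surface. Each genotype is thus represented by 1 T cell line. From each line the EVs were selected with antibody on beads for CD63, a tetraspanin abundant on endosome-derived vesicles, or for MHC class 1 (MHC1), the peptide-presenting surface complex. The groups were thus JinB8 CD63+ EV, JinB8 MHC1+ EV, Jurkat CD63+ EV and Jurkat MHC1+ EV, each kept with the HUVEC for 3 days, followed by the controls, IgG beads (beads with non-specific antibody, 3 days) and untreated HUVEC, for which no time is given. The free text names JinB with a different number in 5 of the 6 JinB8 labels, and the bracketed sample name was followed. The labels give the HUVEC of every group as normal, so that genotype differs only between the T cell lines that shed the EVs. Whether replicate arrays stand for independent cultures is not stated, and the p-values therefore refer to the spread between these samples alone, which could be technical.

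Cells sense the sterol in their membranes through the SREBP transcription factors. When sterol in the endoplasmic reticulum is low, SCAP carries SREBP to the Golgi, where it is cut, and the freed part enters the nucleus and switches on the enzymes that make cholesterol and fatty acids, while INSIG proteins hold SCAP back when sterol is plentiful. Dividing cells transcribe the genes of mitosis late in the cycle, under FOXM1 and B-MYB, and the kinetochore, the spindle and the cleavage furrow are built from their products.

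The controls themselves set how the comparison could be read. Replicate 3 of the IgG bead group and replicate 3 of the untreated group stood apart from the other 16 arrays, with a median correlation across probe sets (Pearson's r) of 0.635 and 0.647, while no pair among the 16 fell under 0.932. They also spanned a narrower range of signal, since the SD of the log2 values was 1.57 and 1.56 in them, against 2.01 to 2.25 in the 16 arrays. The 29 endothelial identity genes averaged 8.30 to 8.44 in the 12 EV arrays and 8.42 to 8.45 in the 4 remaining controls, but 6.33 in bead replicate 3 and 6.93 in untreated replicate 3. The markers of the labelled cell type were thus high in 16 arrays and lower in 2. Counts, the called genes and the medians of the lists described are therefore given in 16 arrays, without these 2 controls, and in all 18, and the values of other genes are from 16 arrays where no number of arrays is named. Markers of T cells, the source of the EVs, averaged 4.19 to 4.75 in the EV arrays and 4.22 to 4.39 in the 4 controls, and none of the 18 measured passed the test. In bead replicate 3 and untreated replicate 3 they averaged 5.39 and 5.40, and markers of fibroblasts and smooth muscle 5.52 and 5.82 (4.85 to 5.34 in the EV arrays, 4.95 to 5.06 in the 4 controls). In these 2 arrays 3 other lists of low signal were higher too, although the snoRNA and mitosis lists were not. Monocyte markers averaged 5.28 and 5.26 in them (4.53 to 4.98 in the EV arrays, 4.52 to 4.66 in the 4 controls), epithelial markers 6.11 and 6.07 (4.95 to 5.53 and 5.13 to 5.22) and microRNA precursors, which mark no cell type, 4.87 and 4.92 (3.94 to 4.33 and 4.02 to 4.08). The part of other cells in these 2 arrays was not tested. Among the 16 arrays, the T cell, fibroblast and smooth muscle, monocyte, epithelial and microRNA lists each had their highest average in Jurkat MHC1+ replicate 1. That array also had the lowest SD (2.01) of the 16 arrays.

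In the 16 arrays, 23 of 18417 genes passed limma's moderated t at an adjusted p under 0.05, which is 0.125% of the genes tested. Of these, 8 were higher with EVs (0.0434%) and 15 were lower (0.0814%). The rises were 7 genes of the sterol and fatty acid lists and STC1, and the falls were 9 genes of the mitosis lists and 6 others. With all 6 controls only STC1 passed, as 1 gene higher (0.00543%), and no gene was lower (0%). An unadjusted p under 0.05 in limma was found for 1904 of the 18417 genes with 18 arrays and for 834 with 16. The 834 are a smaller share of the genes than the threshold of 0.05 itself. Of the 23 genes, 20 had the same sign in the 18 arrays, and KIF23, TGFB2 and CEP55 did not. The call also depended on single control arrays: without untreated replicate 2 the count was 7 (6 higher, 1 lower), and without bead replicate 1 it was 6 (5 higher, 1 lower), with TGFBI as the lower gene both times. Without Jurkat MHC1+ replicate 1 it was 62 (29 higher, 33 lower) and without Jurkat MHC1+ replicate 3 it was 48 (11 higher, 37 lower), with all 23 genes among them both times.

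The 12 EV arrays lay wholly above the 4 controls for 17 genes (0.0923%) and wholly below them for 44 (0.239%). Set against all 6 controls these counts were 10 (0.0543%) and 3 (0.0163%). Of the 23 genes called, 17 had no overlap between the 12 EV arrays and the 4 controls, 6 of them higher and 11 lower. None of the 23 differed between IgG beads and untreated cells at an unadjusted p under 0.05. Over all 18417 genes that contrast gave 0 calls (0%) in limma and 188 genes at an unadjusted p under 0.05. With 2 arrays a group, this does not show that the 2 kinds of control were alike.

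Among the regulators of the sterol response, INSIG1, the endoplasmic reticulum protein that retains SCAP and is itself a target of SREBP, had the largest difference among the rises in 16 arrays. Its log2 signal in the 12 EV arrays was 8.56 at the lowest, 9.50 at the median and 9.99 at the highest, against 8.10 and 8.14 with IgG beads and 7.59 and 8.38 in untreated cells. Every EV array lay above the 4 controls, and the lowest of them was Jurkat MHC1+ replicate 1. The difference was 1.38 ± 0.16 (SE) on the log2 scale (limma, adjusted p = 0.000848). Bead replicate 3 read 6.33 and untreated replicate 3 read 6.25, and with them the difference was 1.97 ± 0.30 (limma, adjusted p = 0.0934). SREBF2, which encodes the SREBP that mainly drives cholesterol genes, had 8.41, 8.64 and 8.85 as its lowest, median and highest EV values, against 8.09 and 8.19 with IgG beads and 8.07 and 8.21 in untreated cells. The groups did not overlap for this gene, and the difference was the smallest among the rises, at 0.51 ± 0.08 (limma, adjusted p = 0.0244). It was 1.33 ± 0.38 with all 18 arrays (limma, adjusted p = 0.272). SREBF2 was not called when any of the 4 controls was left out, and its adjusted p ran from 0.000964 to 0.316 in limma over all 16-array settings. SREBF1, whose products favour fatty acid genes, differed by 0.21 and SCAP by -0.02, and neither passed the test.

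The list of sterol sensing and uptake genes had 11 members measured, of which these 2 rose, none fell and 9 had a positive difference. The median of the list was 0.21 on the log2 scale, beside 0.00 over all genes tested (0.0025 before rounding). Among members that did not pass, NPC1, which exports cholesterol from lysosomes, differed by 0.44, STARD4, a cytosolic sterol carrier, by 0.40 and TMEM97, a sterol-regulated membrane protein, by 0.33.

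Of the enzymes that turn lanosterol into cholesterol, DHCR7, which catalyses the last step from 7-dehydrocholesterol, rose. The EV arrays read 9.52 at the lowest, 9.84 at the median and 10.12 at the highest, against 8.97 and 8.71 with IgG beads and 8.96 and 8.78 in untreated cells. A gap of 0.54 log2 units separated the lowest EV array from the highest of the 4 controls, and the difference was 0.99 ± 0.10 (limma, adjusted p = 0.000321). With the 2 discordant controls DHCR7 differed by 2.07 ± 0.52 and was not called (limma, adjusted p = 0.272). MSMO1, the sterol C4-demethylase, read 8.62, 10.20 and 10.75 at the lowest, median and highest with EVs, against 8.99 and 8.84 with IgG beads and 8.61 and 9.22 in untreated cells. Only Jurkat MHC1+ replicate 1 lay within the controls, and the difference was 1.20 ± 0.20 (limma, adjusted p = 0.0288). The MSMO1 call was lost under many of the single arrays left out, with adjusted p-values from 4.68e-07 to 0.34 in limma over those fits and the other settings. In the 2 discordant controls the level of MSMO1 was 4.76 with beads and 4.41 untreated, so that the 18-array difference was 2.64 ± 0.68 (limma, adjusted p = 0.272).

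All 8 measured members of the lanosterol list had a positive difference, 2 passed the test and the median was 0.80. CYP51A1, the lanosterol demethylase, differed by 0.96 (limma, adjusted p = 0.0778) and LSS, which forms lanosterol, by 0.78 (adjusted p = 0.0702). EBP, the sterol isomerase, differed by 0.82, NSDHL by 0.60, TM7SF2, a sterol reductase, by 0.56 and SC5D, a desaturase, by 0.46. In the upstream mevalonate and squalene list none of 8 measured members passed, 7 had a positive difference and the median was 0.72. HMGCS1, which makes HMG-CoA, had the highest of these differences, 1.35 ± 0.28 (limma, adjusted p = 0.106), with EV arrays from 5.68 to 8.61 and the 4 controls from 5.87 to 6.68. This spread of nearly 3 log2 units among EV arrays exceeded the difference between the groups. It came largely from Jurkat MHC1+ replicate 1, at 5.68, as every other EV array read 7.53 or higher and lay above the 4 controls. MVD, the diphosphomevalonate decarboxylase, was tighter: it read 7.04 to 7.59 in the EV arrays and 6.51 to 6.77 in the controls, without overlap, and differed by 0.60 ± 0.12 (limma, adjusted p = 0.0673). ACAT2, at the entry of the pathway, differed by 1.09, IDI1, the isopentenyl isomerase, by 0.78 and FDPS, the farnesyl diphosphate synthase, by 0.67. PMVK, the phosphomevalonate kinase, differed by -0.01.

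FASN, the synthase that builds palmitate, rose with one of the clearest separations. It read 8.27 at the lowest, 8.62 at the median and 9.0 at the highest with EVs, against 7.48 and 7.67 with IgG beads and 7.56 and 7.70 in untreated cells. The groups lay 0.56 log2 units apart at their nearest, and the difference was 1.01 ± 0.10 (limma, adjusted p = 0.000321). In all 18 arrays it was 1.44 ± 0.23 (limma, adjusted p = 0.0934). FADS2, the desaturase that starts the long-chain polyunsaturated pathway, had 10.24, 10.57 and 10.69 as its lowest, median and highest EV values, against 9.74 and 9.67 with IgG beads and 9.71 and 9.70 in untreated cells. The 4 controls lay within 0.1 log2 unit of each other, and every EV array was above them by 0.50 or more, with a difference of 0.82 ± 0.08 (limma, adjusted p = 0.000321). FADS2 differed by 2.09 ± 0.58 over all 18 arrays, which did not pass (limma, adjusted p = 0.272). SCD, which places the first double bond in stearate and palmitate, read 9.49, 10.50 and 10.81 at the lowest, median and highest with EVs, against 9.24 and 9.59 with IgG beads and 9.18 and 9.40 in untreated cells. Again only Jurkat MHC1+ replicate 1 lay within the range of the controls, and SCD differed by 1.10 ± 0.15 (limma, adjusted p = 0.0039), and by 2.02 ± 0.46 in 18 (adjusted p = 0.272). The SCD call was also lost in 16 arrays without bead replicate 1 and with either control group alone, with an adjusted p of up to 0.118.

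Of the 12 measured members of the fatty acid list these 3 rose, none fell and all 12 had a positive difference, with a median of 0.53. LPIN1, a phosphatidate phosphatase, differed by 0.63, FADS1 by 0.62 (limma, adjusted p = 0.102), ACSS2, which makes acetyl-CoA from acetate, by 0.58 and ELOVL6 by 0.47. ACACA, the acetyl-CoA carboxylase, differed by 0.42 and ACLY, which supplies cytosolic acetyl-CoA, by 0.40. ELOVL5 and ELOVL1, which lengthen other fatty acids, differed by 0.04 and 0.02. Over the 4 sterol and fatty acid lists, 36 of 39 measured genes had a positive difference, with a median of 0.56 in 16 arrays and 1.34 in 18, beside 0.00 and -0.09 over all genes tested. Of all 18417 genes, 9378 had a positive difference in 16 arrays. These lists too were chosen with earlier results of the data known. Taken singly, the 18-array medians were 0.86 for the sensing and uptake list, 1.48 for the lanosterol list, 1.24 for the mevalonate list and 1.45 for the fatty acid list. A higher median in 18 arrays was not particular to lipid genes. It was 0.04 in 16 arrays and 0.88 in 18 for ribosomal protein genes, and -0.05 and 0.66 for endothelial identity genes. Other lists moved down, such as T cell markers, from 0.02 to -0.38. The list that responds to sterol excess, the LXR targets, had a median of 0.15 (0.42 in 18 arrays) and no member of 8 that passed. Among them ABCG1, a sterol exporter, differed by 0.28 and ABCA1, which loads lipid onto apolipoprotein A-I, by 0.06.

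**Figure D1:**
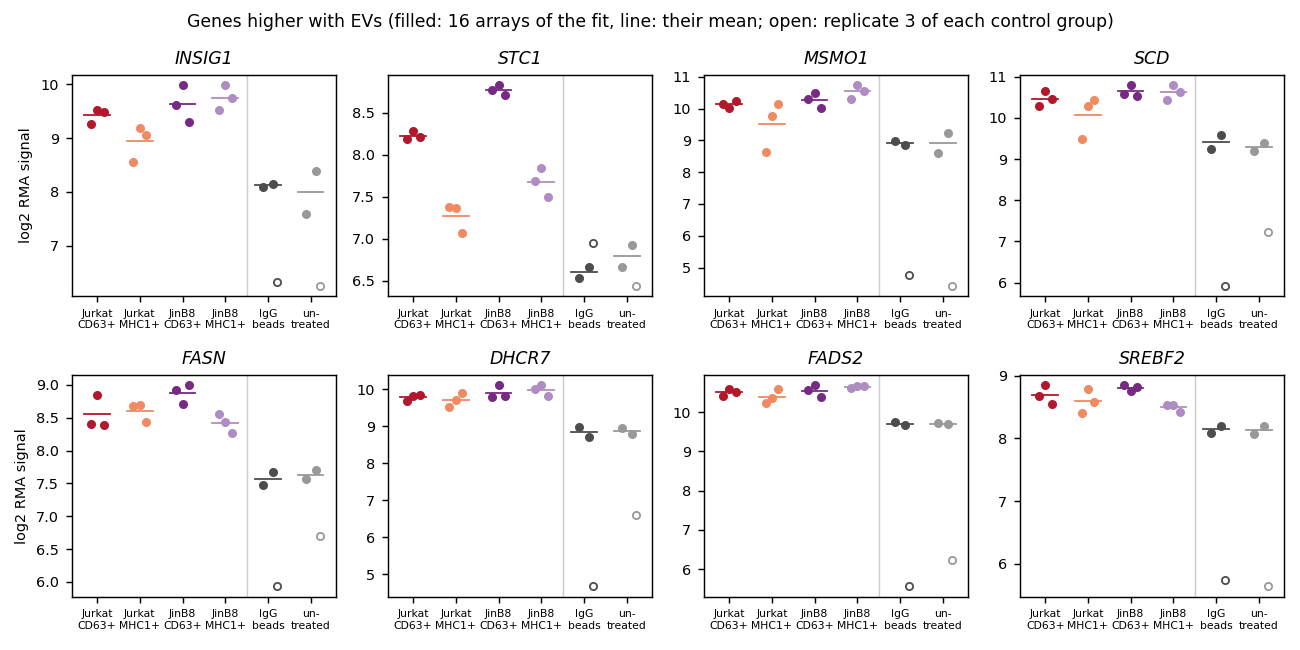
Log2 RMA signal on the y axis of each array for the 8 genes higher with EVs, with the 4 EV groups left of IgG beads and untreated cells. Filled points are the 16 arrays, lines their group means and open points replicate 3 of each control group. FASN, DHCR7 and FADS2 lie at least 0.50 log2 units above the 4 filled controls in every EV array, and the open points lie far below the filled controls for all genes shown but STC1.

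The promoters of these genes were searched for letters that SREBP and NF-Y are known to bind. Whether either factor had a part in the rises was not tested. RefSeq promoters (GRCh38.p14, 250 bases before the start) were at hand for 6 of the 7 rising lipid genes. A form of the sterol regulatory element, TCACNCCAC, was found on either strand in 1 of the 6, and in 0.883% of 35116 promoters of the same length. The NF-Y box, CCAAT on either strand, was found in 5 of the 6 and in 32.0% of all promoters. The SREBF2 promoter is shown because it held both. It lies on the plus strand at chr22:41832855-41833104, and the capitals mark the sterol element, which begins 133 bases before the start, and the CCAAT box on the other strand, at 106 bases.
SREBF2: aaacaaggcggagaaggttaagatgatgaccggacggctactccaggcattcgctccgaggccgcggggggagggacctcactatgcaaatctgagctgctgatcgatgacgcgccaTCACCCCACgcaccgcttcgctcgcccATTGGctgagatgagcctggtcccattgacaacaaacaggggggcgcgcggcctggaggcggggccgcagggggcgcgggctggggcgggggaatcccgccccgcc

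STC1 was the gene with the smallest p in both fits. It encodes stanniocalcin 1, a secreted glycoprotein that acts on neighbouring cells. With EVs the lowest array read 7.07, the median was 8.01 and the highest read 8.84, against 6.53 and 6.66 with IgG beads and 6.66 and 6.93 in untreated cells. Bead replicate 3 (6.94) and untreated replicate 3 (6.43) lay close to the other controls here, and all 12 EV arrays lay above all 6 controls. The difference was 1.29 ± 0.09 in 16 arrays (limma, adjusted p = 6.96e-06) and 1.29 ± 0.11 in 18 (adjusted p = 0.000123). A model with 2 means and no subgroups, in which differences among the EV groups count as error, did not call it (limma, adjusted p = 0.14 in 16 arrays). Within the EV arrays STC1 separated by how the vesicles had been captured. The JinB8 CD63+ arrays read 8.78, 8.84 and 8.72 and the Jurkat CD63+ arrays 8.19, 8.28 and 8.21, while the JinB8 MHC1+ arrays read 7.68, 7.84 and 7.49 and the Jurkat MHC1+ arrays 7.38, 7.36 and 7.07. The CD63+ groups exceeded the MHC1+ groups by 1.03 ± 0.09 (limma, adjusted p = 8.62e-05), with no overlap between 6 and 6 arrays. The JinB8 groups exceeded the Jurkat groups by 0.48 ± 0.09, which did not pass (limma, adjusted p = 0.104). STC1 was on the list of hypoxia and glycolysis genes, of which no other of the 25 measured passed and whose median was 0.00 (-0.0022) in 16 arrays and 0.37 in 18.

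Of the 15 falls, 9 belonged to the mitosis lists, while the largest difference was that of ADGRG4 and the smallest p that of TGFBI, which are in none of them. FOXM1, the transcription factor that drives genes of G2 and mitosis, read 6.33 at the lowest, 6.67 at the median and 7.21 at the highest with EVs, against 7.56 and 7.29 with IgG beads and 7.37 and 7.60 in untreated cells. The highest EV array, a Jurkat CD63+ one, lay just under the lowest control, and FOXM1 differed by -0.71 ± 0.11 (limma, adjusted p = 0.0119), but by only -0.11 ± 0.29 in 18 arrays (adjusted p = 0.762). PLK1, the kinase that drives mitotic entry and spindle assembly, read 6.67, 6.92 and 7.40 at the lowest, median and highest with EVs, against 7.80 and 7.46 with IgG beads and 7.69 and 7.77 in untreated cells. Again the arrays did not overlap, with a difference of -0.71 ± 0.10 (limma, adjusted p = 0.01), against -0.34 ± 0.20 in 18 arrays (adjusted p = 0.272). MKI67, the Ki-67 antigen that coats mitotic chromosomes and marks cycling cells, read 6.55, 6.82 and 7.47 at the lowest, median and highest with EVs, against 7.95 and 7.72 with IgG beads and 7.44 and 8.04 in untreated cells. Here the highest EV array, Jurkat CD63+ replicate 3, passed untreated replicate 1 by 0.03, and the difference was -0.85 ± 0.12 (limma, adjusted p = 0.006). With all 6 controls MKI67 differed by -0.35 ± 0.27 (limma, adjusted p = 0.317). In bulk RNA, fewer dividing cells and less of these RNAs in each dividing cell cannot be told apart.

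At the kinetochore, BUB1B, a checkpoint protein that delays anaphase, fell. It read 4.78 at the lowest, 5.09 at the median and 5.43 at the highest with EVs, against 6.31 and 5.99 with IgG beads and 5.55 and 6.06 in untreated cells. Untreated replicate 1 was the lowest control, yet no EV array reached it, and the difference was -0.87 ± 0.11 (limma, adjusted p = 0.0037). Over 18 arrays it was -0.43 ± 0.23 (limma, adjusted p = 0.272). CENPF, a protein of the outer kinetochore, read 5.33, 5.99 and 6.69 at the lowest, median and highest with EVs, against 7.14 and 6.76 with IgG beads and 6.70 and 6.98 in untreated cells. The Jurkat CD63+ arrays, at 6.69, 6.52 and 6.54, came nearest to the controls, and CENPF differed by -0.85 ± 0.14 (limma, adjusted p = 0.0209), but by -0.17 ± 0.33 in 18 arrays (adjusted p = 0.67). NUF2, a subunit of the NDC80 complex that holds microtubules, spanned 4.33 to 5.13 with EVs and 5.12 to 5.65 in the 4 controls, which overlap at 1 array. It differed by -0.69 ± 0.12 (limma, adjusted p = 0.0247), and by -0.34 ± 0.20 in 18 arrays (adjusted p = 0.272). The NUF2 call was lost in 8 of the 16 fits that left out 1 array each.

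In the spindle and at the midzone, ASPM, which focuses spindle poles, had the largest difference of any mitosis gene. It read 4.95 at the lowest, 5.38 at the median and 6.02 at the highest with EVs, against 6.73 and 6.54 with IgG beads and 6.34 and 6.60 in untreated cells. A gap of 0.32 log2 units separated the arrays, and the difference was -1.07 ± 0.13 (limma, adjusted p = 0.0025). In all 18 arrays ASPM differed by -0.52 ± 0.28 (limma, adjusted p = 0.272). KIF20A, a kinesin of the central spindle, read 4.94, 5.55 and 6.27 at the lowest, median and highest with EVs, against 7.07 and 6.38 with IgG beads and 6.39 and 6.77 in untreated cells. It differed by -1.06 ± 0.18 without overlap (limma, adjusted p = 0.0244), and by -0.35 ± 0.36 in 18 arrays (adjusted p = 0.436). KIF23, the kinesin of the centralspindlin complex, differed by -0.79 ± 0.14 (limma, adjusted p = 0.0414), and CEP55, which recruits the abscission machinery to the midbody, by -0.62 ± 0.10 (adjusted p = 0.0214). KIF23 spanned 6.21 to 7.20 with EVs and 7.27 to 7.59 in the 4 controls, and CEP55 spanned 5.87 to 6.77 and 6.80 to 7.08 in the same order. Both reversed with the 2 discordant controls included, where KIF23 differed by 0.15 and CEP55 by 0.35. With 1 array left out of the 16, the KIF23 call was lost in 13 of 16 fits, that of KIF20A in 8 and that of CEP55 in 5, and over all 16-array settings the adjusted p of KIF23 reached 0.514 in limma. Bead replicate 3 and untreated replicate 3 read 4.88 and 4.40 for KIF23, and 4.83 and 3.33 for CEP55.

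All 51 measured members of the 3 mitosis lists had a negative difference in 16 arrays, with a median of -0.49, and 9 of them passed the test. Of all 18417 genes, 9039 had a negative difference and 15 were called lower (0.0814%). The lists were chosen with earlier results of these data known. Their members were read on the same arrays and do not count as separate replicates. The kinetochore and checkpoint list (16 measured, 3 lower) had a median of -0.47, the spindle and cytokinesis list (17 measured, 3 lower) one of -0.55, and the list of mitotic cyclins, kinases and proliferation markers (18 measured, 3 lower) one of -0.46. CEP55 belonged to none of them. Members that did not pass included ANLN, the scaffold of the cleavage furrow, with a difference of -0.98, TOP2A, the mitotic topoisomerase, with -0.75, and CENPE, the kinetochore motor, with -0.78 (limma, adjusted p = 0.0609). CDK1, the mitotic kinase, differed by -0.42 and CCNB1, its cyclin, by -0.38, while MAD2L1 of the checkpoint differed by -0.02. In the 18 arrays the median of the 51 genes was -0.18 and none passed, with -0.25 for the kinetochore list, -0.08 for the spindle list and -0.21 for the cyclin list. Of the 9, none passed when bead replicate 1 or untreated replicate 2 was left out, and the list medians without bead replicate 1 were -0.29 for the kinetochore list, -0.42 for the spindle list and -0.29 for the cyclin list. Without bead replicate 2 they were -0.68, -0.68 and -0.62.

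The mitosis lists varied over the EV groups and over the controls. Summed as the mean over its members, the spindle list was at 5.89, 5.69 and 5.92 in the Jurkat CD63+ arrays, 5.06, 5.35 and 5.72 in Jurkat MHC1+, 5.44, 5.49 and 5.25 in JinB8 CD63+, and 5.43, 5.38 and 5.55 in JinB8 MHC1+. It was at 6.36 and 5.98 with IgG beads and at 5.90 and 6.20 in untreated cells. As a group the Jurkat CD63+ arrays were thus the nearest to the controls, and 1 of them passed the lowest control. Jurkat MHC1+ replicate 3 (5.72) nevertheless lay nearer to the controls than Jurkat CD63+ replicate 2 (5.69). Genes of the G1/S transition and of DNA replication stood nearer to 0, with a median of -0.08 over 26 measured members (0.02 in 18 arrays) and none that passed. RRM2, the ribonucleotide reductase subunit, differed by -0.53 and CDC45, a helicase factor, by -0.34, while PCNA, the sliding clamp, differed by -0.04 and CCND1, the G1 cyclin, by 0.20. Among p53 targets and inhibitors of the cyclin-dependent kinases, 9 of 18 were positive, the median was 0.00 (0.0049), or 0.22 in 18 arrays, and CDKN1A, which encodes p21, differed by 0.21.

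**Figure D2:**
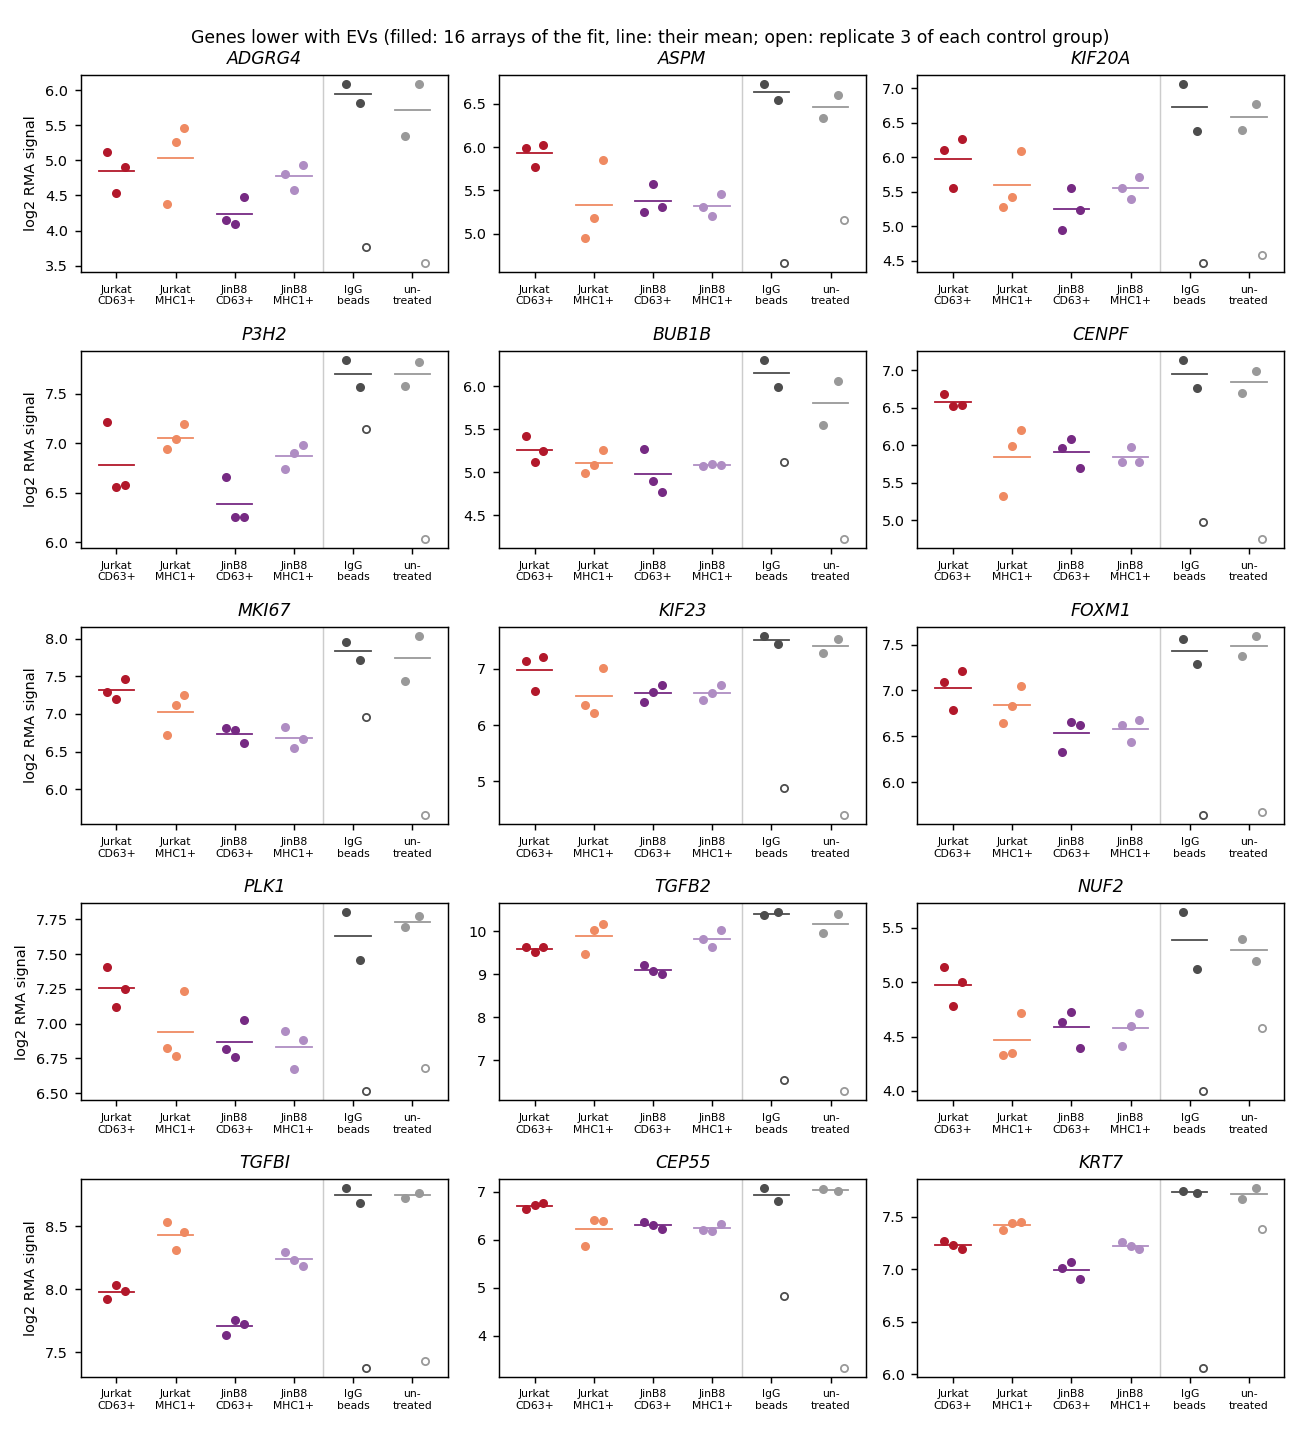
Log2 RMA signal on the y axis of each array for the 15 genes lower with EVs, laid out as for the rising genes, with the 4 EV groups left of IgG beads and untreated cells. Filled points are the 16 arrays, lines their group means and open points replicate 3 of each control group. For ASPM every EV array is at 6.02 or lower and every filled control at 6.34 or higher, and in every panel the open points lie below the filled controls.

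RefSeq promoters of the same length were at hand for 8 of the 9 listed mitosis genes. The cell cycle homology region, a motif known from promoters that are silent until G2 and searched as TTTGAA on either strand, was found in 5 of the 8 and in 13.3% of all promoters. CCAAT was found in 6 of the 8, beside 32.0% of all, and the sterol element in 0. Members that were not called were counted for neither the lipid nor the mitosis lists. Whether a motif goes with the call, rather than with membership of the list, was thus not tested. The 3 genes with the smallest p among those that hold TTTGAA are shown, with TTTGAA and CCAAT, read on either strand, in capitals. The ASPM promoter is on the minus strand at chr1:197146670-197146919 with the element starting 113 bases before the start, BUB1B on the plus strand at chr15:40160819-40161068 with it at 23 bases, and MKI67 on the minus strand at chr10:128126424-128126673, where the second element overlaps a CCAAT box in 1 run of capitals.
ASPM: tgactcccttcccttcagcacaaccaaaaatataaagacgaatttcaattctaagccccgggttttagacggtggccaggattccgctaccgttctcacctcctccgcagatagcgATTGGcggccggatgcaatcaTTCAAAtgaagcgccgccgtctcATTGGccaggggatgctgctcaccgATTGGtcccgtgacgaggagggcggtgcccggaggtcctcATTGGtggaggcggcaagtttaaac
BUB1B: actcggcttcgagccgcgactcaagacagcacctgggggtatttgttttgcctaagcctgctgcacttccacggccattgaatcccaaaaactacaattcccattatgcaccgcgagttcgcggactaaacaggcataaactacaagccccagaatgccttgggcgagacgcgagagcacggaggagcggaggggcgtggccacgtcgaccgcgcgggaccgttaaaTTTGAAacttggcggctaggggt
MKI67: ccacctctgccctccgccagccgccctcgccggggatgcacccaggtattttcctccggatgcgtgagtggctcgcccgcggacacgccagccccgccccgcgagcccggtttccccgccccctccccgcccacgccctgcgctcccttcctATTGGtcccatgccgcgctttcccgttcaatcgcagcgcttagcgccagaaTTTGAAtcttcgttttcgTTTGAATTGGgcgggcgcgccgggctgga

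Outside mitosis, 2 genes of the TGF-beta list and 1 of the matrix list fell. TGFBI, a secreted matrix protein named for its induction by TGF-beta, read 7.64 at the lowest, 8.11 at the median and 8.53 at the highest with EVs, against 8.81 and 8.69 with IgG beads and 8.73 and 8.77 in untreated cells. The 4 controls were close together and every EV array lay under them, with a difference of -0.66 ± 0.07 (limma, adjusted p = 0.000625). TGFBI was the 1 fall that passed under each single array left out, but not with 2 means and no subgroups (limma, adjusted p = 0.145). In 18 arrays, where bead replicate 3 read 7.38 and untreated replicate 3 read 7.43, it differed by -0.21 ± 0.22 (limma, adjusted p = 0.442). TGFB2, a TGF-beta ligand, read 9.0, 9.63 and 10.18 at the lowest, median and highest with EVs, against 10.37 and 10.45 with IgG beads and 9.96 and 10.40 in untreated cells. EV arrays overlapped untreated replicate 1, and TGFB2 differed by -0.69 ± 0.12 (limma, adjusted p = 0.0359), but by 0.60 ± 0.60 in 18 arrays (adjusted p = 0.42). The TGFB2 call was lost in 12 of the 16 fits without 1 array and under 4 of 11 other settings, centring on array medians among them, with an adjusted p of up to 0.758 in limma. P3H2, a prolyl hydroxylase of basement membrane collagen, read 6.25, 6.82 and 7.21 at the lowest, median and highest with EVs, against 7.84 and 7.56 with IgG beads and 7.57 and 7.82 in untreated cells. The arrays were 0.35 apart at their nearest, with a difference of -0.92 ± 0.13 (limma, adjusted p = 0.0041), and of -0.55 ± 0.22 in 18 arrays (adjusted p = 0.272).

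The TGF-beta and BMP list had a median of -0.10 over 30 measured members, 19 of them negative. INHBA, the activin A subunit, differed by -0.53, BMP4 by -0.36 and SMAD3, a signal transducer of TGF-beta, by -0.29, none past the test. The collagen and matrix list had a median of -0.12 (-0.125), with 27 of 31 members negative. MGP, a matrix inhibitor of BMP and calcification, differed by -0.57, and COL4A1 and COL4A2, the chains of the main basement membrane collagen, by -0.22 and -0.21. In 18 arrays the medians of these lists were 0.60 and 0.71, so that their sign depended on the 2 discordant controls.

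Of the 15 falls, 2 more lay in no list. KRT7, an intermediate filament protein best known from simple epithelia, read 6.91, 7.22 and 7.45 at the lowest, median and highest with EVs, against 7.74 and 7.72 with IgG beads and 7.66 and 7.77 in untreated cells. No EV array reached a control, and the difference was -0.51 ± 0.07 (limma, adjusted p = 0.0039), but -0.17 ± 0.20 in 18 arrays (adjusted p = 0.48). The epithelial marker list, which does not hold KRT7, averaged 4.95 to 5.53 in the EV arrays and 5.13 to 5.22 in the 4 controls, with no member that passed. ADGRG4, an adhesion receptor of the G protein-coupled family, spanned 4.09 to 5.47 with EVs and 5.35 to 6.10 in the 4 controls, and it differed by -1.11 ± 0.18 (limma, adjusted p = 0.024). The difference of ADGRG4 was -0.38 ± 0.37 with all 18 arrays (limma, adjusted p = 0.412), and in 16 its call was lost in 6 of the 16 fits without 1 array.

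**Figure D3:**
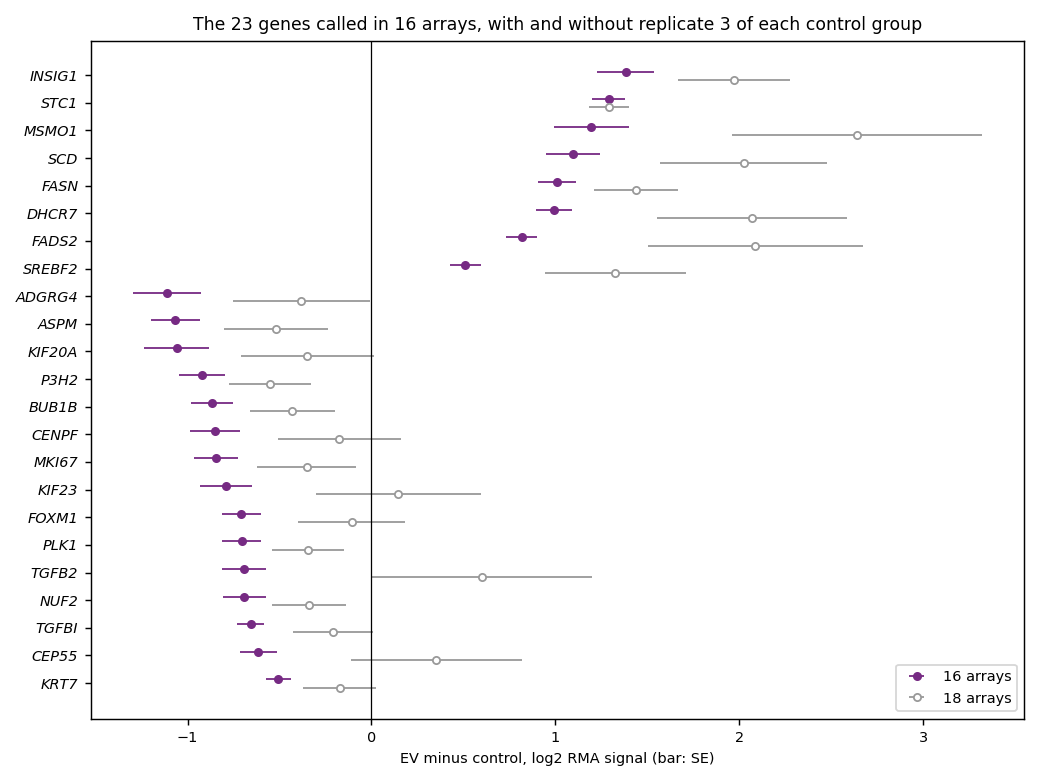
EV minus control difference in log2 RMA signal (x axis, bars are the SE) for the 23 genes called in 16 arrays, with filled points for 16 arrays and open points for all 18. The 7 lipid genes lie further right in 18 arrays, with wider bars, STC1 is at 1.29 in both, and KIF23, TGFB2 and CEP55 change sign.

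How the EV groups varied among themselves was tested with a moderated F over their 4 means, which passed for 33 genes (0.179%). Of the 23 genes that separated EVs from controls, STC1 and TGFBI were among them and the other 21 were not. An unadjusted p under 0.05 in that F was found for 16 of the 23, and for 2661 of all 18417 genes tested. The contrast of CD63+ with MHC1+ EVs passed for 4 genes in all (0.0217%), STC1 and TGFBI included. TGFBI read 7.92, 8.04 and 7.99 in Jurkat CD63+ and 7.64, 7.76 and 7.73 in JinB8 CD63+ arrays, while it read 8.53, 8.31 and 8.45 in Jurkat MHC1+ and 8.29, 8.24 and 8.19 in JinB8 MHC1+ arrays. All 6 CD63+ arrays lay under all 6 MHC1+ arrays, by -0.49 ± 0.07 in the mean (limma, adjusted p = 0.0317). The contrast of JinB8 with Jurkat EVs passed for 10 genes (0.0543%), none of them among the 23. INSIG1, for which that contrast was 0.51 ± 0.16 (limma, adjusted p = 0.716), averaged 9.63 in JinB8 CD63+ and 9.75 in JinB8 MHC1+, and 9.43 in Jurkat CD63+ and 8.94 in Jurkat MHC1+. FASN averaged 8.88 and 8.42 in the same JinB8 groups and 8.55 and 8.60 in the Jurkat groups, with a contrast of 0.07 ± 0.10.

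Set against the same 4 controls, which the 4 comparisons therefore share, the median difference of the mevalonate list was 0.71 for Jurkat CD63+, 0.34 for Jurkat MHC1+ (0.335), 0.90 for JinB8 CD63+ and 0.96 for JinB8 MHC1+. That of the spindle list was -0.26, -0.74, -0.67 and -0.57 in that order. Jurkat MHC1+ had the lowest of the mevalonate medians and Jurkat CD63+ the spindle median nearest to 0. Jurkat MHC1+ replicate 1 was the lowest EV array on both lists. On the mevalonate list it was at 6.53, where the other 11 ran from 7.24 to 7.88 and the 4 controls from 6.60 to 6.75. Its part in these medians beyond the counts above was not tested.

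The remaining lists held no called gene in 16 arrays. All 27 measured interferon-stimulated genes had a negative difference, with a median of -0.31, and in 18 arrays the median was 0.71. MX2, an antiviral GTPase, read 9.45 to 10.06 in the EV arrays and 10.16 to 10.54 in the 4 controls and differed by -0.56 ± 0.10 (limma, adjusted p = 0.0608). MX1, its paralog, read 10.00 to 10.52 with EVs and 10.64 to 10.76 in the controls and differed by -0.38 (limma, adjusted p = 0.127). Neither passed, though their arrays did not overlap, and with the 2 discordant controls each differed by 0.90. The mean of the interferon list nevertheless overlapped, since the JinB8 MHC1+ arrays were at 9.13, 9.20 and 9.16 and the controls at 9.03 to 9.33. The NF-kB list of adhesion molecules and cytokines had a median of -0.18, with 20 of 26 members negative, and in 18 arrays a median of 0.00 (-0.0034) with 13 of 26 negative. Against the 4 controls its median was -0.27 for Jurkat CD63+, -0.18 for Jurkat MHC1+ and -0.23 for JinB8 CD63+, but 0.05 for JinB8 MHC1+. VCAM1, the leukocyte adhesion molecule, differed by -0.50 (limma, adjusted p = 0.0608), SELE, E-selectin, by -0.74 (adjusted p = 0.344) and IL6 by -0.35 (adjusted p = 0.421). The signal of VCAM1 was low, at 4.18 to 4.62 with EVs and 4.53 to 5.05 in the 4 controls, near that of the T cell markers. CCL20, a chemokine, had the highest difference of the list, 0.52, and did not pass.

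The endothelial identity list had a median of -0.05 in 16 arrays and 0.66 in 18, and 16-array differences from -0.33 for VWF to 0.13 for NOS3. KDR, the main VEGF receptor, differed by -0.07, PECAM1 by -0.09 and CDH5, VE-cadherin, by -0.09. In 18 arrays PECAM1 differed by 1.57 and CDH5 by 1.19. CD47 differed by -0.15, THBS1, the thrombospondin that binds it, by -0.08 and CD63 by 0.10, with adjusted p-values of 1 in limma. With all 6 controls these differences were 0.67, 1.14 and 1.01, and none passed. CD82, another tetraspanin, read 7.56 to 8.06 with EVs and 7.31 to 7.54 in the 4 controls, a difference of 0.36 that did not pass (limma, adjusted p = 0.216). The H/ACA small nucleolar RNAs had a median of 0.28 (0.35 in 18 arrays) with 67 of 77 positive, and their mean was at 6.39, 6.38 and 6.30 in the JinB8 MHC1+ arrays, against 5.35 to 5.78 in the other EV arrays and 5.43 to 5.63 in the controls. Ribosomal protein genes had a median of 0.04 and respiratory chain genes one of 0.01 in 16 arrays, and 0.88 and 0.40 in 18.

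**Figure D4:**
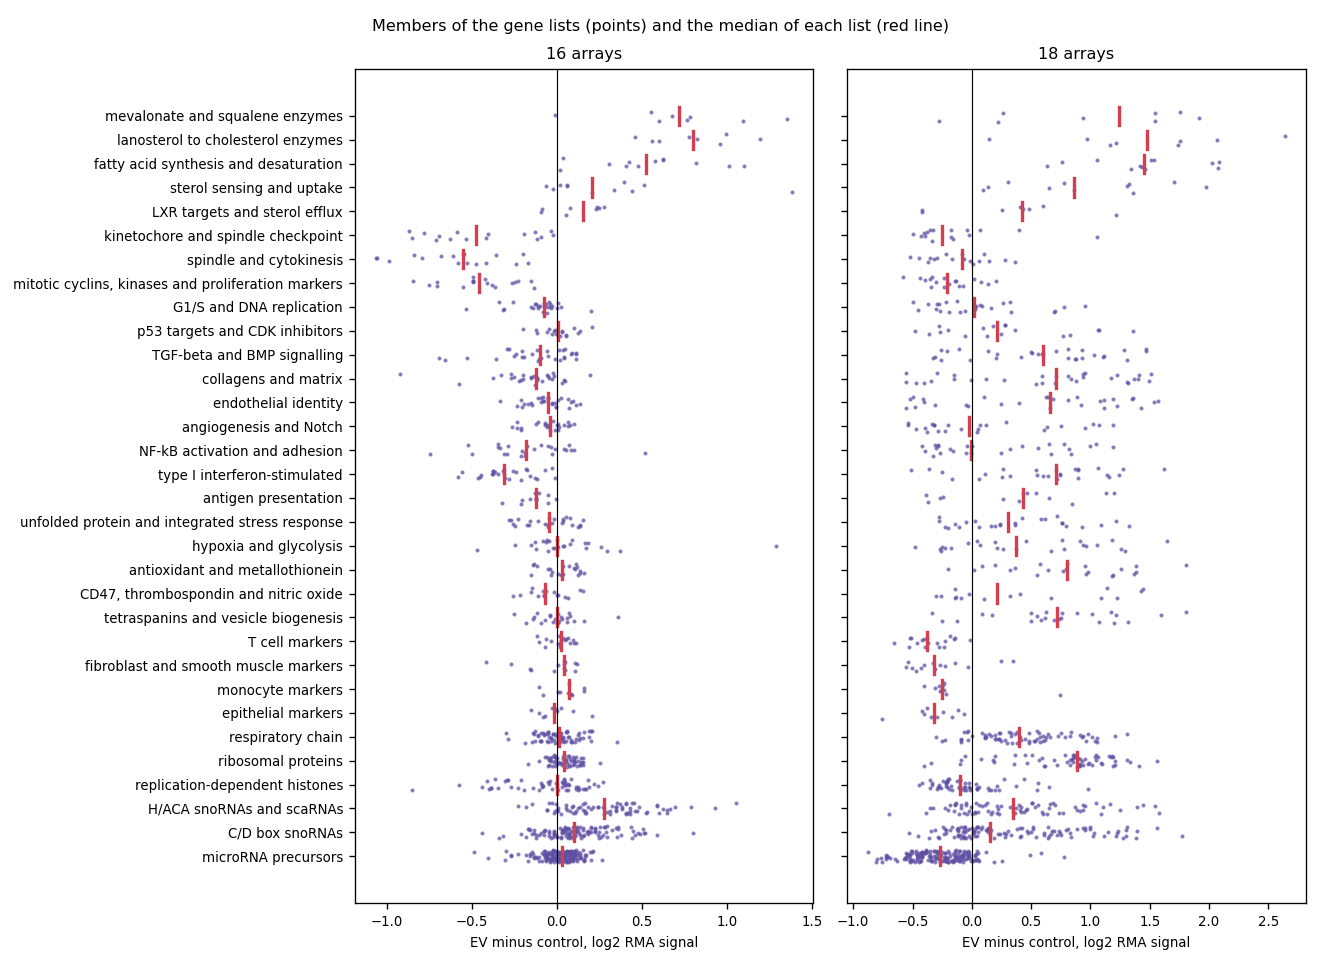
EV minus control difference in log2 RMA signal (x axis) for every measured member of the 32 gene lists, in 16 arrays on the left and 18 on the right. Points are genes and the red line is the median of the list. In 16 arrays the cholesterol lists stand at medians of 0.72 and 0.80 and the mitosis lists between -0.55 and -0.46, while most others lie near 0, and in 18 arrays 27 of 32 medians moved.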

How the data were processed

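RNA of HUVEC in 6 groups was hybridised to 18 whole-transcript Affymetrix arrays, 3 per group. The submitters' processing notes name RMA and Affymetrix Expression Console for the step from scanner signal to probe set (version not given in the sources used here). The values deposited by the authors were read from their range as log2 RMA signal, which is background-corrected and quantile-normalized. The number of arrays sets the precision, as arrays carry no depth.

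Probe sets without a gene (12083 of 33297) or with more than 1 symbol (1754) were left out. For each symbol among the other 19460 the probe set with the highest mean over the 18 arrays was kept, which gave 18417 genes, 769 of them with more than 1 probe set. Each of the 23 genes called had 1 probe set. RefSeq held 18389 of the genes by Entrez number.

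A model with a mean for each group was fitted in R 4.3.3 with lmFit and eBayes of limma 3.58.1, tested on simulated data. The mean of the 4 EV groups minus that of the 2 control groups was tested two-sided, in 18 arrays and in 16, with Benjamini-Hochberg adjustment over all genes and a threshold of 0.05. Plots were drawn with matplotlib 3.10.9, and tables with numpy 2.4.6 and pandas 2.3.3, under Python 3.11.15.

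The comparison, the 32 gene lists and the rule for named genes were chosen with earlier results of these data known. The rule took genes called without overlap (up to 15 in each direction), up to 4 members of each list by p, and STC1, FASN, INSIG1, CD47, THBS1, CD63 and NOS3. All other genes called, and other list members given for their list, were added after their values were seen. The histone list was rewritten to current symbols and the microRNA list stripped of host genes after the files were read. Promoters were searched on both strands in the 250 bases before each RefSeq start. Alternatives covered the control group, filters on low genes, probe sets, the variance model, array weights, normalization, the model and each array left out in turn.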

Additional observations from a re-analysis of the deposited data

Results flagged for a closer look

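TGFB2 in untreated replicate 1 was at 9.96 log2 units, far below the other 3 of the 4 concordant controls, which lay between 10.37 and 10.45. Its gap to them took 0.83 of the whole range of the 4, just past the critical value of Dixon's test. Chance flags about 1 in 20 such groups. STC1 differed among the 4 EV groups, with 1.51 log2 units between the highest group mean (JinB8 CD63+) and the lowest (Jurkat MHC1+), and a moderated F in limma with an adjusted p of 0.000254. TGFBI also differed among them, with 0.73 log2 units between the highest group mean (Jurkat MHC1+) and the lowest (JinB8 CD63+), and an adjusted p of 0.0202 in the same test.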

How the results depend on the processing

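In 16 arrays the 23 calls became 6 (5 higher, 1 lower) with untreated cells alone as control, 8 (5 and 3) with IgG beads alone, 12 (7 and 5) with 2 means and no subgroups, 42 (22 and 20) after quantile normalization again, 129 (50 and 79) with array weights and 184 (92 and 92) with the array SD as a covariate. The weights were estimated gene by gene, since the default estimate did not converge. Leaving out 1 array gave 6 to 62, and besides the arrays named in the report, 14 without JinB8 MHC1+ replicate 1 and 15 without JinB8 MHC1+ replicate 2. In 18 arrays the 1 call became 2 after quantile normalization and with 2 means, 66 with the SD covariate and 235 with array weights, and 1 to 2 with 1 array left out (2 without untreated replicate 2 and 2 without bead replicate 3).

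Of the 23 genes, 6 passed with every single array left out (INSIG1, STC1, FASN, DHCR7, FADS2 and TGFBI), and INSIG1, FASN, DHCR7 and FADS2 also under every other setting in 16 arrays. With 18 arrays the difference reversed for CEP55 (0.35), TGFB2 (0.60) and KIF23 (0.15). The cause was not tested. The 33 genes that differed among the EV groups became 2 with 18 arrays and 19 after quantile normalization, with 4 (without JinB8 MHC1+ replicate 1) to 251 (without Jurkat MHC1+ replicate 3) under single arrays left out. The 10 of JinB8 against Jurkat became 0 and 6, with 1 (without Jurkat CD63+ replicate 1) to 16 (without Jurkat MHC1+ replicate 1). The 4 of CD63+ against MHC1+ became 2 with 18 arrays, 2 after quantile normalization and 2 with trend and robust options, with 2 (without untreated replicate 1) to 13 (without Jurkat MHC1+ replicate 1). IgG beads against untreated gave 0 in limma under all settings run. Of the 32 list medians, 27 moved with 18 arrays, and 3 of 512 with 1 array left out. Smaller shifts are not in these counts. With 1 array left out, the median ran from -0.68 to -0.29 for the kinetochore list, from -0.68 to -0.42 for the spindle list and from -0.62 to -0.29 for the cyclin list.

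No paired analysis was possible because the labels give no replicate numbers that groups share. Detection over background was not analysed here, so whether low levels exceed background was not tested.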

Other observations

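All 12 EV arrays lay above the 4 concordant controls for 17 genes (0.0923%) and below them for 44 (0.239%). Of these genes, 17 were called. Only a few of the others are given here, and they were picked after their values were seen. MVK, the mevalonate kinase, differed by 0.55, and MMAB, its neighbour in the genome, which acts in cobalamin metabolism, by 0.49 (limma, adjusted p = 0.127 for MMAB). PCYT2, the enzyme that sets the rate of phosphatidylethanolamine synthesis by the Kennedy pathway, differed by 0.52. Among the genes below the controls, VCAN, the matrix proteoglycan versican, differed by -0.64 and CEACAM1, an adhesion molecule, by -0.63, both with an adjusted p of 0.0778 in limma. HMGB2, a chromatin protein of cycling cells, differed by -0.54, and CPT1A, which brings fatty acids into mitochondria for oxidation, by -0.29. None of these passed the test.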
